A study of Mus musculus with 22 samples.

Results

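The 10 genes Nt5e, Ampd3, Kcnj8, Aqp4, Pdgfc, Lrp8, Cttnbp2, Ky, Ankrd45 and Lypd6b were chosen by their response to the loss of Prdm16, which had to be large or stronger on the left than on the right, out of 54356 genes in the files. The measured values that chose them include the left ventricle fold change and its difference from the right ventricle fold change. The tissue in which a response had to be large was not stated, and no numerical threshold was stated. Ventricle values of these genes are therefore a description, given without a test. The whole heart libraries are the ones in which they are tested, and the stated choice does not say that the whole hearts were left out when the genes were picked. All 10 genes passed the filter on low counts.

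The study sequenced mRNA of C57BL/6 mouse hearts at E13.5, when the ventricular walls are still forming, in 22 libraries. Conditional Prdm16 knockouts (cKO) were compared with littermate controls, which the labels name WT and whose genetic manipulation they give as Mock. There were 3 cKO and 3 control whole hearts, 4 cKO and 4 control left ventricles, and 4 cKO and 4 control right ventricles. The floxed allele, the Cre line and which ventricles share a heart are not given in the sources used here.

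Whole heart libraries held 38590751 to 62004017 assigned reads and ventricle libraries 14508722 to 22830716. Prdm16, which encodes a zinc finger transcription factor, was at 21.5 to 23.4 CPM (read counts scaled to library size with TMM factors) in the cKO left ventricles and at 45.03 to 56.0 CPM in their controls. It was also lower in every cKO library than in every control library of the right ventricle and of the whole heart. The log2 fold change of Prdm16 was -1.19 on the left and -0.75 on the right. Left minus right, this differed by -0.44 (SE 0.101, edgeR adjusted p = 0.0404), and by -0.41 without right ventricle control 2. The left over right log2 ratio of Prdm16 was 0.36 in the controls (edgeR adjusted p = 0.00131) and -0.08 in the cKO (edgeR adjusted p = 0.459). The part of this unequal loss in other side differences was not tested. Ventricular cardiomyocyte markers summed to 25052 to 39235 TPM (Salmon's length-scaled unit) in the ventricles, with none of the 8 at 0 in any library. Among the right ventricle controls, control 2 was unlike the others. The 12 markers of cushion and fibroblast mesenchyme summed to 1676 TPM in it and to 713.64 to 783.01 TPM in the other 3, so right ventricle results are given with and without it.

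The ventricular wall of the embryonic heart has an outer compact layer, which divides and thickens, and an inner trabecular layer, and the left and right ventricles arise largely from different progenitor fields. The 10 genes do not belong to a single pathway. Nt5e and Ampd3 encode enzymes that act on AMP, which the first turns into adenosine outside the cell and the second into IMP inside it. Kcnj8 and Aqp4 encode membrane channels for potassium and for water, Pdgfc a secreted growth factor, and Lrp8 a receptor for Reelin and apolipoprotein E. Cttnbp2 encodes a cortactin-binding protein, Ky a protein needed for normal skeletal muscle structure, Ankrd45 an ankyrin repeat protein, and Lypd6b a membrane-anchored protein of the Ly6 family that can modulate nicotinic receptors.

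Promoter windows were taken from RefSeq (GRCm38.p6) and run from 250 bases before to 50 bases after a gene's start. They were found for 8 of the 10 genes, Nt5e, Ampd3, Kcnj8, Pdgfc, Lrp8, Cttnbp2, Ky and Ankrd45, and the first window was used where a gene had several. Short motifs were searched on both strands, and a match describes letters, not binding. AGATAA, a motif of GATA factors, was in 0 of the 8 windows and in 11.4% of 27025 mouse promoter windows of the same length. CATTCC, a motif of TEAD factors, was in 1 of the 8 and in 14.6% of all windows. AGGTGT, a motif of T-box factors, was in 2 of the 8 and in 13.9% of all windows. CACGTG and CACGCG, motifs of Hey and Hes factors, were in 0 and in 1 of the 8, against 7.24% and 9.36% of all windows. The E-box CANNTG, which also covers every CACGTG, was in 4 of the 8 (Nt5e, Ky, Kcnj8 and Ampd3) and in 72.1% of all windows.

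The 4 windows that held a motif other than the plain E-box are printed because they show where these letters lie, with the motif in capitals. That of Pdgfc (chr3:81036166-81036465, plus strand) holds CATTCC on each strand, and that of Lrp8 (chr4:107802635-107802934, plus strand) holds CACGCG. Those of Kcnj8 (chr6:142571565-142571864, minus strand) and Ampd3 (chr7:110768372-110768671, plus strand) hold AGGTGT, read from the opposite strand. The windows of Lrp8 and Ampd3 lie inside the gene bodies of the GENCODE annotation, which begin further upstream.
Pdgfc: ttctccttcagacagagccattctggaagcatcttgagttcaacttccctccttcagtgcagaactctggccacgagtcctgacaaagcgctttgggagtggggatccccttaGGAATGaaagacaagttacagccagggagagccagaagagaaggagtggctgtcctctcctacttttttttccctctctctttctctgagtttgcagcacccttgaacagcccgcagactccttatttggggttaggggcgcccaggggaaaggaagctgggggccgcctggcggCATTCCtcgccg
Lrp8: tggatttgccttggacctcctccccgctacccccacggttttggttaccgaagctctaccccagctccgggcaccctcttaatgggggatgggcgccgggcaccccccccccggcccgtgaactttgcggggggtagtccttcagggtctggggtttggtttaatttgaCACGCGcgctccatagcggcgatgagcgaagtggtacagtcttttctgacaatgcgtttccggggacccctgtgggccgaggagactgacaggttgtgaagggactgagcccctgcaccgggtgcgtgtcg
Kcnj8: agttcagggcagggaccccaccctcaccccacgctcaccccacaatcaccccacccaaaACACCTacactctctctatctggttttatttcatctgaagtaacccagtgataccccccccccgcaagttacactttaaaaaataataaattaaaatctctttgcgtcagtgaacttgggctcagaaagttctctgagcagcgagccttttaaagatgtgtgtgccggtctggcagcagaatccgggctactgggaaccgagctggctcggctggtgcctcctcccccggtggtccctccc
Ampd3: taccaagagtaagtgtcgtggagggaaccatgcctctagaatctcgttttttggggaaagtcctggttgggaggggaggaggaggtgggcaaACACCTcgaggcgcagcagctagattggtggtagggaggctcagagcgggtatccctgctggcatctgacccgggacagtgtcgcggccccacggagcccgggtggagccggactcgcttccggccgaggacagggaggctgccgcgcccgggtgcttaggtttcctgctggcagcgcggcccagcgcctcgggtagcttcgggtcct

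In the left ventricle 5 of the 10 genes were higher in every cKO library than in every control library (Nt5e, Pdgfc, Lrp8, Kcnj8 and Cttnbp2), and 4 were lower in every one (Aqp4, Ky, Ampd3 and Ankrd45). Lypd6b overlapped. Over all 16448 genes, 29.0% did not overlap in the left ventricle, 14.1% with the cKO higher and 15.0% with the cKO lower. In the right ventricle 6 of the 10 genes did not overlap, against 12.7% of all genes (7.61% higher and 5.14% lower in the cKO), and without control 2 it was 8, against 23.1% of all genes. The edgeR quasi-likelihood test with Benjamini-Hochberg adjustment called 25.6% of all genes in the left ventricle, 10.3% in the right ventricle (6.12% higher and 4.19% lower) and 1.43% for the difference between the ventricles. Of the 10 genes it called 9, 6 and 8 in that order, and for the difference DESeq2 called 9. These 3 counts follow from how the genes were chosen, and nothing is read from them. RNA per library was measured in bulk, so fewer cells of a type and less RNA per cell cannot be told apart.

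**Figure D1:**
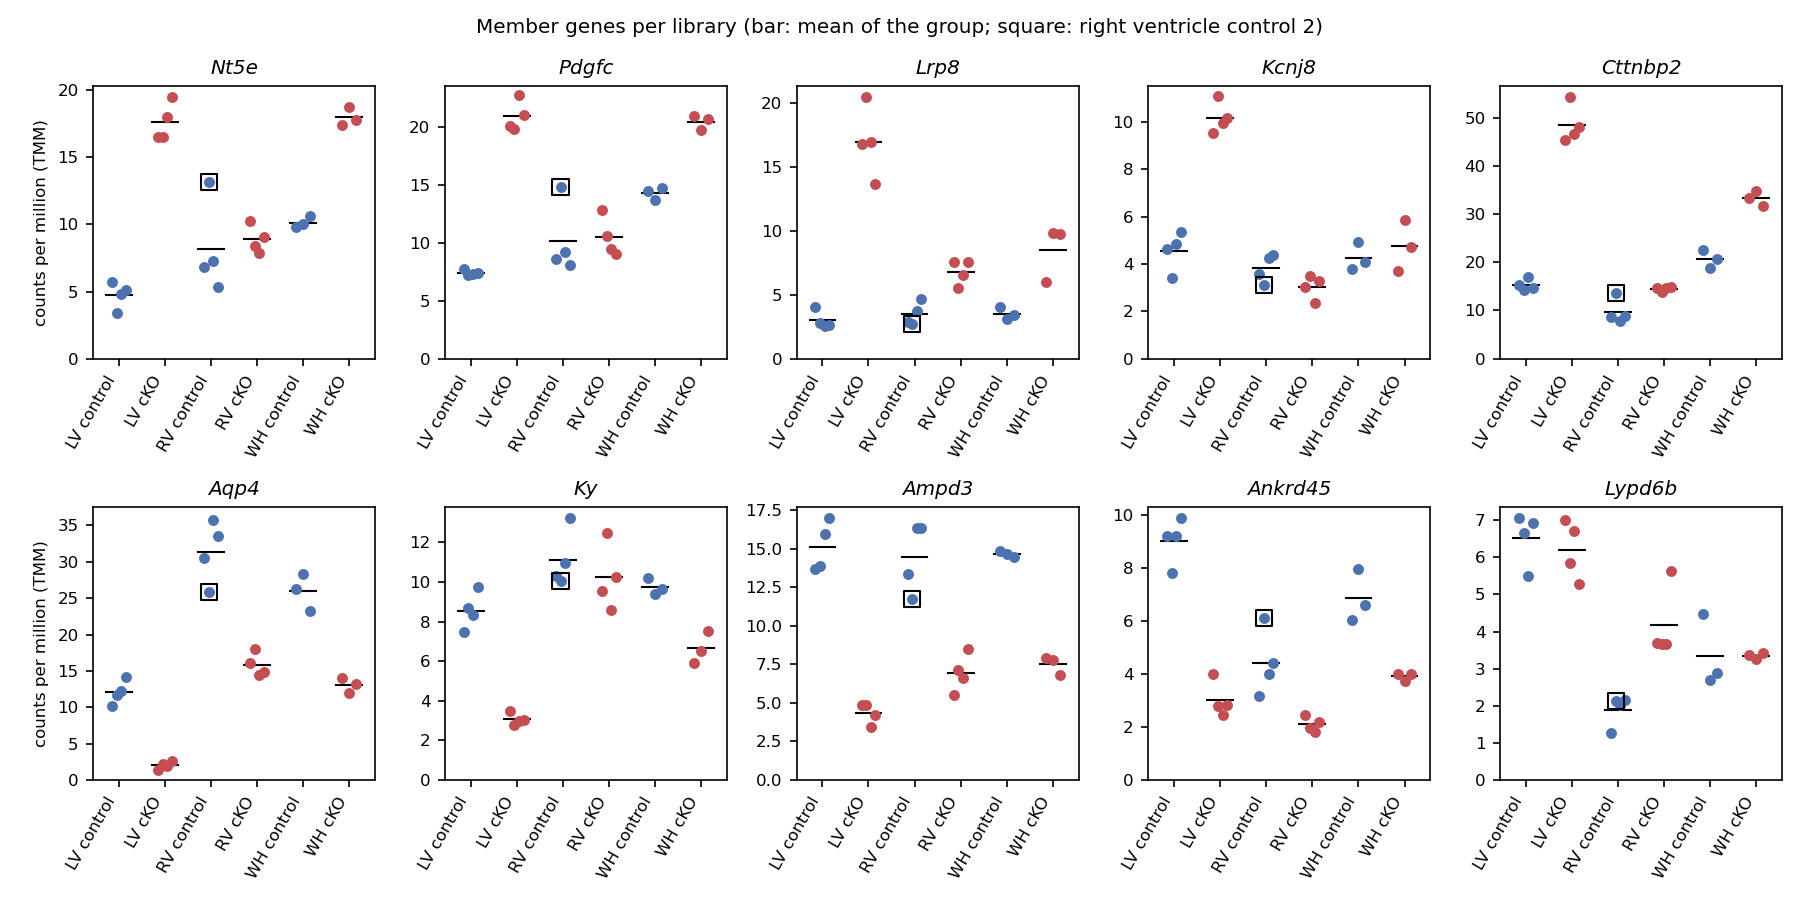
Normalised CPM of each of the 10 genes (y axis) in every library of the left ventricle (LV), right ventricle (RV) and whole heart (WH), with controls in blue, cKO in red, a bar at each group mean and a square around right ventricle control 2. The cKO left ventricles lie clear of their controls for 9 genes, with Aqp4 at 1.43 to 2.56 against 10.2 to 14.2 CPM, while Lypd6b separates on the right.

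Nt5e (ENSMUSG00000032420.8, chromosome 9, 88327197 to 88372092, plus strand, GRCm38) encodes CD73, the cell-surface enzyme that makes adenosine from AMP. It was at 16.5, 16.5, 18.02 and 19.5 CPM in the cKO left ventricles. The left ventricle controls had 5.70, 3.39, 4.80 and 5.13 CPM. The groups were far apart, with a log2 fold change of 1.90 (SE 0.22), a 3.73-fold higher level in the cKO. The cKO right ventricles had 10.3, 8.42, 7.89 and 9.04 CPM. Right-sided controls had 6.84, 13.2, 7.29 and 5.31 CPM. The groups overlapped on the right only through control 2, whose level was above all 4 cKO libraries. On the right the log2 fold change was 0.12 (SE 0.21), and 0.46 (SE 0.15) without control 2. The difference between the sides was 1.78 (SE 0.30), and 1.44 (SE 0.20) without that library.

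Ampd3 (ENSMUSG00000005686.17, chromosome 7, 110768206 to 110812405, plus strand) encodes an AMP deaminase. It was at 4.88, 4.89, 3.47 and 4.24 CPM in the cKO left ventricles. Control left ventricles had 13.7, 13.9, 15.9 and 17.0 CPM. Its log2 fold change on the left was -1.80 (SE 0.15), a 3.47-fold lower level. Right-sided cKO libraries had 5.52, 7.11, 6.60 and 8.52 CPM. Control right ventricles had 13.4, 11.7, 16.3 and 16.3 CPM. Ampd3 was thus lower in every cKO library on both sides, with a log2 fold change of -1.06 (SE 0.14) on the right. The side difference was -0.74 (SE 0.20), and -0.65 (SE 0.19) without control 2. Rnf141, which overlaps Ampd3 on the opposite strand, was at 43.2 to 56.8 CPM and was not called in any comparison.

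The other genes of AMP and adenosine metabolism were read from a list of 30, of which 26 were tested in the ventricles. In the left ventricle 3 rose and 11 fell, and in the right ventricle 1 rose and 2 fell, counts that were 2 and 5 on the right without control 2. The 3 that rose on the left were Adora1, Alpl (0.95) and Enpp1 (0.71), of which the last 2 encode ectoenzymes of phosphate metabolism. The list's median log2 fold change was -0.11 on the left and -0.04 on the right, against medians of -0.00083 and -0.0054 over all genes. Adssl1, the muscle adenylosuccinate synthase, fell by 0.68 on the log2 scale in the left ventricle (SE 0.07, edgeR adjusted p = 4.96e-06). Adsl, the adenylosuccinate lyase, fell by 0.32 there (SE 0.05, edgeR adjusted p = 0.000163). With AMP deaminase these enzymes make up the purine nucleotide cycle. Ampd2, another AMP deaminase gene, was looked up after its values were seen. It was at 26.9 to 33.8 TPM in the left ventricle controls, where Ampd3 had 3.91 to 4.84 TPM. Ampd2 was not called on the left (-0.06, edgeR adjusted p = 0.326) or on the right (0.03, edgeR adjusted p = 0.726). On the right Adssl1 fell by 0.27 (SE 0.07, edgeR adjusted p = 0.0252). That right ventricle call was lost with a correction for transcript length or when cKO 2 or 3 or control 1, 3 or 4 was left out, with adjusted p up to 0.0789. Adsl had -0.11 on the right (edgeR adjusted p = 0.205), and -0.15 (adjusted p = 0.0199) without control 2.

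The side differences of Adssl1 (-0.41, edgeR adjusted p = 0.0655) and Adsl (-0.21, edgeR adjusted p = 0.160) were not called. That of Adssl1 was called in 3 of 23 alternative fits, namely without right ventricle control 2 (-0.33, edgeR adjusted p = 0.0396), with replicate numbers as a block (-0.41, edgeR adjusted p = 0.0336) and by DESeq2 (-0.40, adjusted p = 0.0226). The nucleoside transporter gene Slc29a2 fell by 0.59 in the left ventricle (SE 0.09, edgeR adjusted p = 0.000127). The left ventricle calls of Slc29a2 and Adsl were lost with a correction for transcript length (adjusted p = 0.112 and 0.0606). The adenosine receptor gene Adora1 rose on both sides, by 0.52 on the left (SE 0.08, edgeR adjusted p = 0.000197) and by 0.97 on the right (SE 0.09, edgeR adjusted p = 1.52e-06). The list's 1 call for the side difference was Impdh1, an enzyme of guanine nucleotide synthesis, at -0.23 (SE 0.05, edgeR adjusted p = 0.0389). It was singled out after its values were seen, and its call held in 7 of 23 alternative fits. Of the 26 genes 10 had an unadjusted p under 0.05 for the side difference, and DESeq2 called 3.

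Kcnj8 (ENSMUSG00000030247.9, chromosome 6, 142564837 to 142571614, minus strand) encodes a pore subunit of ATP-sensitive potassium channels that is known from vascular mural cells. It was at 9.53, 11.1, 9.95 and 10.2 CPM in the cKO left ventricles. Their controls had 4.61, 3.39, 4.84 and 5.35 CPM. The groups did not overlap, and the log2 fold change was 1.16 (SE 0.14). On the right, cKO levels were 3.03, 3.50, 2.36 and 3.29 CPM. Their controls had 3.56, 3.12, 4.25 and 4.37 CPM. The right ventricle groups overlapped through control 2, and the fold change pointed the other way, at -0.33 (SE 0.16), and at -0.42 (SE 0.16) without that library. Left minus right, the effects differed by 1.49 (SE 0.21), and 1.58 (SE 0.21) without it.

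Abcc9, which encodes the regulatory subunit that pairs with the Kcnj8 protein in vascular muscle, is the next annotated gene, 16247 bases away on the same strand (chromosome 6, 142587862 to 142702315). It rose on both sides, by 0.56 in the left ventricle (SE 0.10, edgeR adjusted p = 0.000385) and by 0.55 in the right (SE 0.10, edgeR adjusted p = 0.00107). Its side difference was 0.01 (SE 0.14, edgeR adjusted p = 0.996). Abcc8, the other regulatory subunit, rose by 1.55 on the left (SE 0.19, edgeR adjusted p = 1.39e-05) and by 1.67 on the right (SE 0.17, edgeR adjusted p = 6.51e-06). Kcnj11, the other pore subunit, was looked up after its values were seen. It had 0.01 on the left (edgeR adjusted p = 0.908) and rose by 0.31 on the right (SE 0.06, edgeR adjusted p = 0.00319). Kcnj5 and Kcnj3, which form the acetylcholine-gated atrial channel, also rose on both sides, Kcnj5 by 0.41 and 0.76 and Kcnj3 by 0.75 and 0.88 (edgeR adjusted p between 1.79e-06 and 0.000779). Of the 7 other channel genes of the list, 4 rose and 1 fell on the left, and 5 rose and 1 fell on the right. The one that fell was Kcnj2, which carries the ventricular inward rectifier current, by 0.32 on the left and by 0.83 on the right (edgeR adjusted p = 0.0196 and 2.46e-05). For the side difference edgeR called 0 of the 7, of which 3 had an unadjusted p under 0.05, and DESeq2 called 2, Kcnj5 among them.

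**Figure D2:**
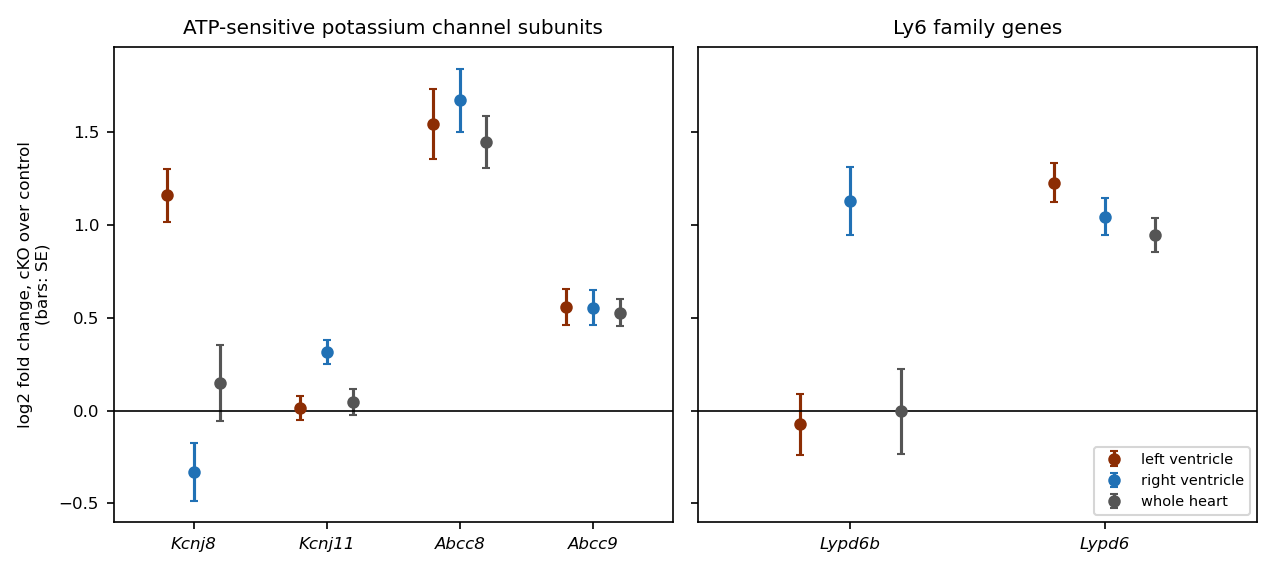
Log2 fold change of cKO over control (y axis, bars show the SE) in the left ventricle, right ventricle and whole heart for the 4 subunit genes of ATP-sensitive potassium channels (left panel) and for Lypd6b and its neighbour Lypd6 (right panel). Abcc8, Abcc9 and Lypd6 have similar values on both sides, whereas Kcnj8 is at 1.16 and -0.33 and Lypd6b at -0.07 and 1.13 in the left and right ventricle.

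The 10 markers of pericytes and smooth muscle, which share Abcc9 with that list, summed to 1052 to 1193.8 TPM in the cKO left ventricles and to 1009.5 to 1132 TPM in their controls, so those ranges overlapped. Of the 10, 3 rose and 2 fell on the left, and 3 rose and 2 fell on the right. Abcc9 and Des (0.36 on each side) rose on both sides, Tagln (0.87) on the left and Myh11 (1.05) on the right. Cspg4 fell on both sides (-0.56 and -0.28), Acta2 (-0.65) on the left and Rgs5 (-2.97) on the right. The sum therefore joins markers that moved in opposite directions. None of the 10 was at 0 in any library.

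Aqp4 (ENSMUSG00000024411.10), the gene of a water channel that is anchored to the dystrophin complex, had the largest left ventricle decrease among the 10 genes. The cKO left ventricles had 1.43, 2.19, 1.93 and 2.56 CPM, from 25 to 47 reads per library. In the controls the values were 10.2, 11.7, 12.2 and 14.2 CPM. The log2 fold change was -2.57 (SE 0.16), a 5.95-fold lower level. cKO right ventricles had 16.1, 18.05, 14.4 and 14.8 CPM. The controls there had 30.5, 25.8, 35.7 and 33.6 CPM. Aqp4 was lower in every cKO library on both sides, by -0.99 (SE 0.12) on the right, and -1.07 (SE 0.11) without control 2. The side difference was -1.58 (SE 0.20), and -1.50 (SE 0.18) without that library. Aqp4 was already lower on the left than on the right in the controls, and the cKO left ventricles lay below all other groups.

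Among the other aquaporins and dystrophin complex genes, 16 of 18 were tested. In the left ventricle 1 rose and 3 fell, and in the right ventricle 0 rose and 1 fell by edgeR, while 2 fell there without control 2. Among those called on the left, Sntb1 fell by 0.28 on the left (edgeR adjusted p = 0.0320) and Dmd rose by 0.13 (edgeR adjusted p = 0.0430). Both calls were lost when left ventricle cKO 1 or control 1 or 2 was left out, among other libraries, and with a correction for transcript length.

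Pdgfc (ENSMUSG00000028019.9, chromosome 3, 81036416 to 81214040, plus strand) encodes a ligand of PDGF receptor alpha that is secreted in a latent form. It was at 20.1, 19.8, 22.7 and 21.0 CPM in the cKO left ventricles. The left ventricle controls had 7.73, 7.16, 7.29 and 7.41 CPM. On the log2 scale the change was 1.496 (SE 0.16), a 2.82-fold higher level. The cKO right ventricles had 12.8, 10.6, 9.48 and 9.04 CPM. Right-sided controls had 8.62, 14.8, 9.16 and 8.08 CPM. The right ventricle groups overlapped with and without control 2, which had the highest level of the 8. The right ventricle fold change was, in log2, 0.04 (SE 0.16), and 0.28 (SE 0.10) without that library. Left minus right, the effects differed by 1.46 (SE 0.22), and 1.21 (SE 0.14) without it.

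Of the 9 other PDGF genes, 1 rose and 0 fell in the left ventricle, and 0 rose and 2 fell in the right. Those 2 were the urokinase gene Plau (-0.79, edgeR adjusted p = 0.00950) and the ligand gene Pdgfb (-0.48, edgeR adjusted p = 0.0431), whose call was lost without right ventricle cKO 1, 2 or 3 or control 3 or 4, among other libraries. Pdgfd, another ligand, rose by 0.71 on the left (SE 0.14, edgeR adjusted p = 0.00135), and had 0.13 on the right (edgeR adjusted p = 0.676). Its side difference of 0.58 was not called (SE 0.21, edgeR adjusted p = 0.198). The ligand genes Pdgfa (-0.18, edgeR adjusted p = 0.0854) and Pdgfb (-0.31, edgeR adjusted p = 0.122) were not called on the left. Pdgfra, the gene of the receptor for this ligand, was looked up after its values were seen. It was at 13.2 to 18.9 TPM in the cKO left ventricles and at 11.0 to 16.2 TPM in their controls, which overlapped (log2 fold change 0.15, SE 0.28, edgeR adjusted p = 0.763). On the right Pdgfra was at 25.3 TPM in control 2, and the median of the 4 controls was 8.51 TPM. The high levels of Nt5e and Pdgfc in right ventricle control 2 thus came together with that of a mesenchyme marker, and its part in the result was not tested.

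Lrp8 (ENSMUSG00000028613.14, chromosome 4, 107802261 to 107876840, plus strand) had the largest left ventricle increase among the 10 genes. It was at 16.8, 20.5, 16.9 and 13.7 CPM in the cKO left ventricles. Control left ventricles had 4.001, 2.78, 2.57 and 2.59 CPM. The log2 fold change was 2.52 (SE 0.18), a 5.73-fold higher level. Right-sided cKO libraries had 7.54, 5.56, 6.54 and 7.58 CPM. Control right ventricles had 2.89, 2.72, 3.74 and 4.65 CPM. Lrp8 was higher in every cKO library on both sides, with 0.96 (SE 0.18) on the right and 0.86 (SE 0.19) without control 2. The side difference was 1.56 (SE 0.26). In deposited TPM the right ventricle groups overlapped, and with a correction for transcript length the values were 2.09 on the left and 0.44 on the right. The antisense gene Lrp8os2 was at 3.43 to 6.9997 CPM over all libraries and was not called in any comparison.

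Of 19 other genes of the Reelin pathway and the lipoprotein receptor family, 18 were tested. In the left ventricle 8 rose and 1 fell, in the right ventricle 4 rose and 0 fell, and without right ventricle control 2 those right ventricle counts were 8 and 1. Reln, the gene of the ligand, rose by 0.89 on the left (SE 0.13, edgeR adjusted p = 7.33e-05) and by 0.96 on the right (SE 0.13, edgeR adjusted p = 0.000131). It was at 4.57 to 5.41 TPM in the cKO left ventricles against 1.82 to 3.84 TPM in their controls. The chaperone gene Lrpap1 rose by 0.40 and 0.23 (edgeR adjusted p = 8.73e-07 and 0.000612). Its right ventricle call was lost with a correction for transcript length (edgeR adjusted p = 0.170). The kinase gene Fyn rose by 0.37 and 0.23 (edgeR adjusted p = 5.36e-06 and 0.00115), calls that were lost with a correction for transcript length. Apoe, the gene of the other ligand, rose by 0.52 on the left (SE 0.06, edgeR adjusted p = 1.49e-05) and had 0.18 on the right (edgeR adjusted p = 0.100, and 0.0476 without control 2). On the right the fourth gene that rose was Vldlr, the other Reelin receptor (0.30, edgeR adjusted p = 0.0247). None of the 18 was called for the side difference by edgeR, 5 of them had an unadjusted p under 0.05, and DESeq2 called Apoe (adjusted p = 0.0127).

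Cttnbp2 (ENSMUSG00000000416.16, chromosome 6, 18366478 to 18514843, minus strand) encodes a protein that binds cortactin and the striatin-based STRIPAK phosphatase complex. It was at 45.4, 54.2, 46.6 and 48.0 CPM in the cKO left ventricles. Their controls had 15.2, 14.1, 16.8 and 14.7 CPM. On the log2 scale the change was 1.67 (SE 0.12), a 3.18-fold higher level. On the right, cKO levels were 14.7, 13.9, 14.5 and 14.8 CPM. Their controls had 8.68, 13.6, 7.80 and 8.80 CPM. All 4 cKO libraries lay above the controls, by a small margin over control 2, and in TPM they overlapped. On the right the log2 fold change was 0.57 (SE 0.13), and 0.78 (SE 0.08) without that library. Left minus right, the effects differed by 1.10 (SE 0.17), and 0.88 (SE 0.10) without it.

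The reads of Cttnbp2 did not lie mainly on its coding transcripts. A transcript annotated as a retained intron held on average 50.1% of its TPM (range 13.6% to 72.02% over the 22 libraries). Coding transcripts held a median of 16.6% in the cKO left ventricles and 16.3% in their controls. For Pdgfc, a transcript annotated for nonsense-mediated decay held on average 71.5%, and the coding share had medians of 36.8% in the cKO left ventricles and 33.1% in their controls. In TPM of coding transcripts alone, Pdgfc was at 2.63 to 3.997 in the cKO left ventricles and at 0.597 to 1.29 in their controls. Those groups did not overlap. For Cttnbp2 the coding TPM was 1.26 to 4.83 against 0.207 to 1.30, which overlapped. Gm43843, a predicted gene model inside Cttnbp2 on the same strand, rose by 1.49 on the left (SE 0.38, edgeR adjusted p = 0.00756).

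Of 17 other STRIPAK and cortactin genes, 3 rose and 3 fell in the left ventricle, and 1 rose and 4 fell in the right. Strip2 was the 1 gene called for the side difference. It fell by 0.63 on the left (SE 0.04, edgeR adjusted p = 2.52e-08) and by 0.14 on the right (SE 0.04, edgeR adjusted p = 0.0375), with a difference of -0.49 (SE 0.06, edgeR adjusted p = 0.000799). Strip2 was at 17.2 to 18.9 TPM in the cKO left ventricles and at 26.0 to 29.3 TPM in their controls. The right ventricle call was lost without any 1 of the 4 right ventricle cKO libraries, among others. Strn, a striatin gene, fell by 0.39 on each side (edgeR adjusted p = 0.000242 and 0.000629). Sike1 rose by 0.22 and 0.21 (edgeR adjusted p = 9.91e-05 and 0.000359), calls that were lost with a correction for transcript length. The other calls were Stk24 (-0.19), Stk26 (0.35) and Strn3 (0.14) on the left and Stk24 (-0.13) and Cttnbp2nl (-0.19) on the right. The right ventricle call of Stk24 held in 9 of 23 alternative fits, and its left ventricle call was lost with a correction for transcript length.

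Ky (ENSMUSG00000035606.8, chromosome 9, 102505750 to 102546239, plus strand) is named for the kyphoscoliotic mouse and encodes a transglutaminase-like protein of the muscle Z-disc region. It was at 3.50, 2.76, 2.96 and 3.05 CPM in the cKO left ventricles. In the controls the values were 7.46, 8.67, 8.32 and 9.74 CPM. The log2 fold change was -1.48 (SE 0.13), a 2.80-fold lower level. cKO right ventricles had 9.56, 12.5, 8.60 and 10.2 CPM. The controls there had 10.3, 10.0, 10.9 and 13.2 CPM. The right ventricle groups overlapped, with -0.12 (SE 0.12), and -0.17 (SE 0.12) without control 2. The side difference was -1.36 (SE 0.18), and -1.32 (SE 0.18) without that library.

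Of the other genes of Ky partners and the Z-disc, 11 of 13 were tested, and 1 rose and 4 fell in the left ventricle. In the right ventricle Fhl1 alone rose (0.35, edgeR adjusted p = 0.00380) and 0 fell, while 2 fell without control 2. Xirp2 rose by 1.03 on the left (SE 0.20, edgeR adjusted p = 0.00125), whereas Xirp1 fell by 0.22 (SE 0.06, edgeR adjusted p = 0.00731), a call lost with a correction for transcript length. The level of Xirp2 was very low, at 0.400 to 0.535 TPM in the cKO left ventricles and 0.159 to 0.311 TPM in their controls. In those controls Xirp1 was at 33.7 to 49.1 TPM. Mybpc3, the cardiac myosin-binding protein, and Actn2, the sarcomeric actinin, fell by 0.25 and 0.22 on the left (edgeR adjusted p = 0.00192 and 0.00644). These 4 genes had smaller right ventricle values, from -0.10 to 0.42, which edgeR did not call. Without right ventricle control 2, Mybpc3 (-0.13) and Actn2 (-0.17) were called there (adjusted p = 0.0145 and 0.00347). Xirp2 was called there without right ventricle control 3. The other left ventricle call was Ldb3 (-0.13, edgeR adjusted p = 0.0390). For the side difference edgeR and DESeq2 each called 0 of the 11, of which 2 had an unadjusted p under 0.05.

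Ankrd45 (ENSMUSG00000044835.15, chromosome 1, 161142691 to 161170498, plus strand) was at 4.02, 2.81, 2.44 and 2.83 CPM in the cKO left ventricles. The left ventricle controls had 9.22, 7.82, 9.22 and 9.90 CPM. On the log2 scale the change was -1.58 (SE 0.18). The cKO right ventricles had 2.45, 1.95, 1.83 and 2.20 CPM. Right-sided controls had 3.17, 6.13, 4.02 and 4.43 CPM. Ankrd45 was lower in every cKO library on both sides, with -1.07 (SE 0.19) on the right, and -0.87 (SE 0.17) without control 2. The effects on the 2 sides differed by -0.51 (SE 0.27), and by -0.71 (SE 0.23) without control 2. From group means of TPM this difference was only -0.12.

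Lypd6b (ENSMUSG00000026765.12, chromosome 2, 49787688 to 49948849, plus strand) went against the label of a left ventricle response. It was at 7.002, 5.85, 6.71 and 5.28 CPM in the cKO left ventricles. Control left ventricles had 7.05, 6.65, 5.49 and 6.93 CPM. Those groups overlapped almost fully, with a log2 fold change of -0.07 (SE 0.16). Right-sided cKO libraries had 3.70, 3.67, 3.65 and 5.64 CPM. Control right ventricles had 1.28, 2.13, 2.01 and 2.16 CPM, from 23 to 43 reads per library. The difference thus lay on the right, where every cKO library was above every control and the log2 fold change was 1.13 (SE 0.18), and 1.19 (SE 0.20) without control 2. Left minus right, the effects differed by -1.20 (SE 0.25).

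Lypd6, the next annotated gene, lies 117579 bases away on the same strand (chromosome 2, 50066429 to 50193569) and encodes a related Ly6 protein. It rose on both sides, by 1.23 in the left ventricle (SE 0.10, edgeR adjusted p = 3.16e-07) and by 1.04 in the right (SE 0.10, edgeR adjusted p = 3.18e-06). Its side difference of 0.18 was not called (SE 0.14, edgeR adjusted p = 0.637). Of 23 other Ly6 and nicotinic receptor genes 12 were tested, and on each side 2 rose and 3 fell, while 4 rose on the left without right ventricle control 2. For the side difference edgeR and DESeq2 each called 0, and 1 had an unadjusted p under 0.05. Lynx1, a nicotinic modulator, fell by 1.41 on the left (SE 0.18, edgeR adjusted p = 2.78e-05) and by 1.07 on the right (SE 0.18, edgeR adjusted p = 0.000758). Ly6e rose by 0.54 and 0.31 (edgeR adjusted p = 2.87e-05 and 0.00915). Plaur, the urokinase receptor, fell by 0.84 and 0.64 (edgeR adjusted p = 0.00165 and 0.0242), and its right ventricle call was lost without right ventricle cKO 1 or 3 or control 1 and with a correction for transcript length. Gpihbp1, an endothelial Ly6 protein gene, fell by 0.91 and 0.74 (edgeR adjusted p = 0.00308 and 0.0243).

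Over all 8 lists, 116 of the 136 other genes were tested in the ventricles. In the left ventricle 49 were called (42.2%, against 25.6% of all genes), in the right ventricle 27 (23.3%, against 10.3%) and 38 without right ventricle control 2 (32.8%, against 14.5% of all genes). For the side difference 3 were called (2.59%, against 1.43%), Strip2 and Impdh1 among them, and leaving out single libraries gave 1 to 4. The lists were drawn up with earlier results of these data known.

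**Figure D3:**
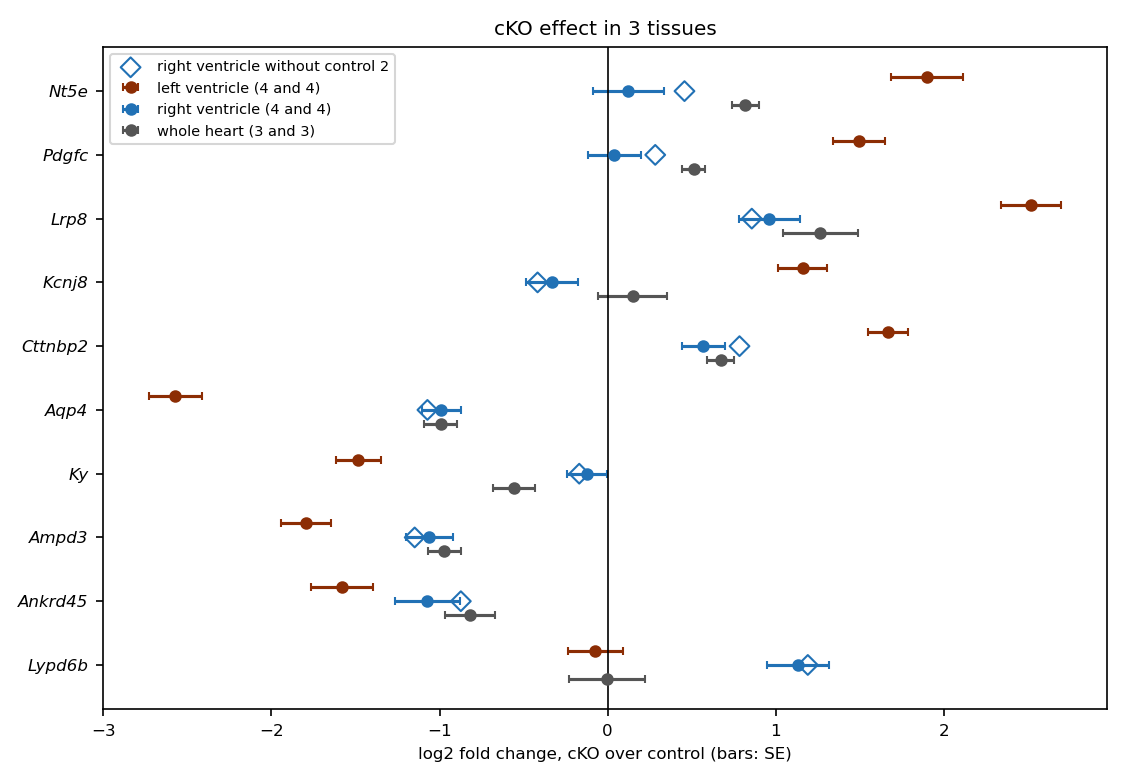
Log2 fold change of cKO over control (x axis, bars show the SE) of the 10 genes in the left ventricle, right ventricle and whole heart, with open diamonds for the right ventricle without control 2. The left ventricle value is the farthest from 0 for 9 genes, and for those 9 the whole heart value lies nearer to the right than to the left ventricle value.

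The whole heart libraries gave a test that used no ventricle library. Their values may also have been among those that chose the genes. The counts and p-values below are therefore no independent support for a response of these genes. In the whole heart 7 of the 10 genes were called by edgeR with Benjamini-Hochberg adjustment, 4 higher and 3 lower, against 4.03% of 19160 genes tested (1.96% higher and 2.07% lower). In CPM 8 of the 10 did not overlap between the groups, against 26.7% of all genes (13.8% higher and 12.9% lower in the cKO). Nt5e was at 17.4, 18.7 and 17.8 CPM in the cKO and at 9.78, 10.0 and 10.6 CPM in the controls, a rise of 0.82 on the log2 scale (SE 0.08, edgeR adjusted p = 0.00251). Cttnbp2 was at 33.3, 34.8 and 31.6 CPM against 22.6, 18.9 and 20.7 CPM (0.67, SE 0.08, edgeR adjusted p = 0.00509). Aqp4 was at 14.1, 11.99 and 13.2 CPM against 26.3, 28.4 and 23.2 CPM, a fall of 0.99 (SE 0.10, edgeR adjusted p = 0.00285). These 3 genes were called in all 13 alternative fits of the whole hearts.

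Ampd3 was at 7.94, 7.76 and 6.80 CPM in the cKO and at 14.8, 14.7 and 14.4 CPM in the controls, a fall of 0.97 (SE 0.10, edgeR adjusted p = 0.00285). It was called in 12 of 13 alternative fits. With a correction for transcript length the value was -1.11 (SE 0.26, edgeR adjusted p = 0.152). In TPM control 1 had 8.38, and the other controls had 4.69 and 4.68. Pdgfc was at 21.0, 19.7 and 20.7 CPM against 14.5, 13.7 and 14.7 CPM (0.51, SE 0.07, edgeR adjusted p = 0.00899). Its call was lost without any 1 of the 3 cKO hearts. Lrp8 was at 6.01, 9.81 and 9.76 CPM against 4.06, 3.08 and 3.45 CPM (1.27, SE 0.22, edgeR adjusted p = 0.0221), and its call was lost without cKO 2 or 3 or control 2 or 3. Ankrd45 was at 4.01, 3.74 and 4.02 CPM against 6.05, 7.99 and 6.62 CPM (-0.82, SE 0.15, edgeR adjusted p = 0.0255), a call lost without any 1 of the cKO hearts or without control 2 or 3.

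The other 3 genes were not called in the whole heart. Ky was at 5.90, 6.53 and 7.51 CPM in the cKO and at 10.2, 9.37 and 9.64 CPM in the controls, without overlap (-0.56, SE 0.12, edgeR adjusted p = 0.0520). In TPM its groups overlapped, with cKO 3 at 1.97 against 1.77 to 1.86 in the controls. With a correction for transcript length the value was -0.35 (SE 0.21, edgeR adjusted p = 0.569). Ky was called in 3 of 13 alternative fits, among them the fit without control 1. Kcnj8 overlapped, at 3.70, 5.84 and 4.73 CPM against 3.802, 4.93 and 4.07 CPM (0.15, edgeR adjusted p = 0.759), with an interval of -0.25 to 0.55 on the log2 scale. Lypd6b also overlapped, at 3.37, 3.26 and 3.42 CPM against 4.47, 2.69 and 2.89 CPM (edgeR adjusted p = 0.995), with an interval of -0.45 to 0.44. Kcnj8, whose ventricle values had opposite signs with overlapping groups on the right, and Lypd6b, which differed on the right, were among these 3 genes. A reason for the missing calls was not tested.

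Of 127 other list genes tested in the whole heart 21 were called (16.5%, against 4.03% of all genes), 12 higher and 9 lower. Abcc8 (1.45, edgeR adjusted p = 0.00256), Lypd6 (0.95, adjusted p = 0.00251), Reln (0.96, adjusted p = 0.00374) and Adora1 (0.87, adjusted p = 0.00201) rose. Adssl1 fell by 0.56 (edgeR adjusted p = 0.00422). With a correction for transcript length Adora1 was still called. Abcc8 (1.40, edgeR adjusted p = 0.157) and Adssl1 (-0.60, adjusted p = 0.0509) then had values of like size without a call. Lypd6 had 0.48 (edgeR adjusted p = 0.628), and Reln had -0.11 (adjusted p = 0.954), which is no rise. Abcc9 rose by 0.53 (edgeR adjusted p = 0.00899), a call lost without cKO 2 or 3 or control 3.

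**Figure D4:**
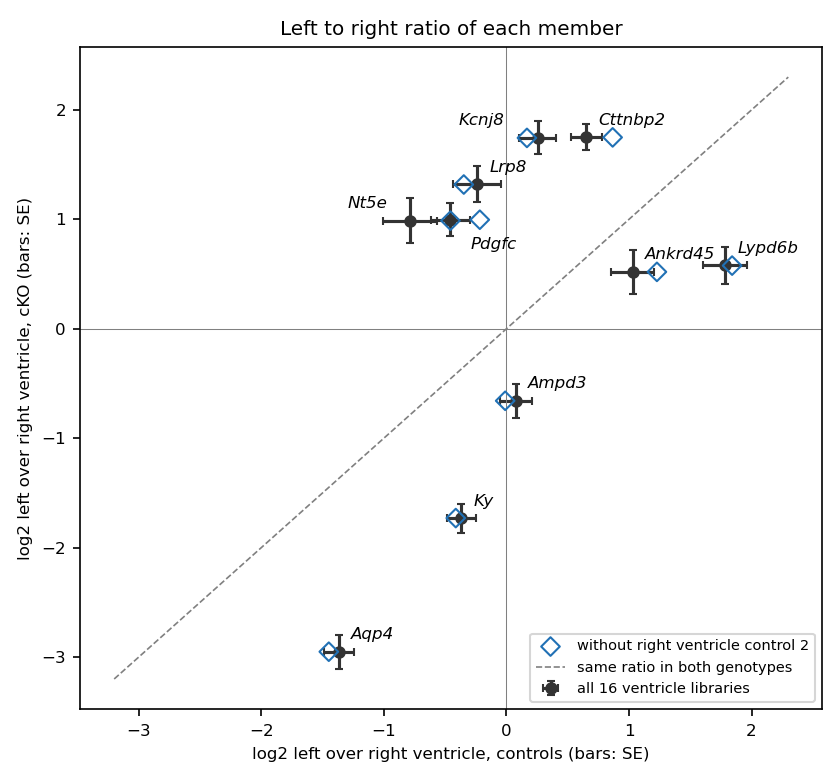
Log2 ratio of the left over the right ventricle in the controls (x axis) and in the cKO (y axis) for each of the 10 genes, with SE bars, open diamonds without right ventricle control 2 and a dashed line where both ratios are equal. The 5 genes above the line include Nt5e, at -0.79 in the controls and 0.99 in the cKO, and Aqp4 lies lowest at -1.37 and -2.95.

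The same libraries show how the 10 genes were divided between the ventricles. Of all genes, 21.0% were called between left and right in the controls (9.02% higher on the left) and 32.8% in the cKO. In the controls Lypd6b (left over right log2 1.78, SE 0.18), Ankrd45 (1.03, SE 0.18) and Cttnbp2 (0.65, SE 0.13) were higher on the left, and Aqp4 (-1.37, SE 0.12) on the right. Nt5e had -0.79 (SE 0.22) and Pdgfc -0.46 (SE 0.16), and without right ventricle control 2 these were -0.46 and -0.22. In the cKO the ratio was 0.99 for Nt5e (SE 0.20) and 0.998 for Pdgfc (SE 0.15), so both had the opposite sign to the controls. Kcnj8 went from 0.26 (SE 0.15) to 1.75 (SE 0.15) and Lrp8 from -0.24 (SE 0.19) to 1.32 (SE 0.17). Ky went from -0.37 (SE 0.12) to -1.73 (SE 0.13), and Aqp4 to -2.95 (SE 0.16). For Lypd6b (0.58, SE 0.17) and Ankrd45 (0.52, SE 0.20) the ratio was nearer to 0 in the cKO. These ratios share their libraries with the ventricle effects and carry no separate evidence.

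Levels between the genes can be compared in TPM, which is per length. In the left ventricle controls the medians ran from 4.55 TPM for Ampd3, 4.04 for Cttnbp2, 3.72 for Lypd6b and 3.24 for Aqp4 down to 1.45 for Nt5e and 0.685 for Lrp8. The ranges of Ampd3 (3.91 to 4.84 TPM) and Cttnbp2 (3.91 to 4.99 TPM) overlapped. In the cKO left ventricles Cttnbp2 (13.4 TPM) and Pdgfc (8.76 TPM) had the highest medians, and Aqp4 (0.593 TPM) and Ky (0.557 TPM) the lowest, the last 2 with overlapping ranges. All 10 genes were thus at low levels, with medians of 0.557 to 13.4 TPM in those groups.

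Over the 16 ventricle libraries, the 10 genes did not vary as 1 group. On log2 CPM, Pearson's r was 0.96 between Nt5e and Pdgfc, 0.96 between Aqp4 and Ky, -0.98 between Cttnbp2 and Aqp4, and -0.96 between Cttnbp2 and Ky. Ankrd45 was nearly unrelated to Kcnj8 (0.01) and Lypd6b to Nt5e (0.11). Among 13078 other protein-coding genes, those most like Aqp4 were Crip2 and Ckm (r = 0.98 each), and those most like Ky were Hey2 (0.98) and Eef1a2 (0.97). Cttnbp2 was closest to Marveld1 and Epb41l2 (0.98 each), Lrp8 to Slc9a3r1 (0.97) and Klhl6 (0.96), and Ampd3 to Tln2 and Adhfe1 (0.97 each). Pdgfc was closest to Erlin2 (0.96) and Il6st (0.94), Ankrd45 to Cxcl12 (0.95) and Rassf4 (0.94), and Kcnj8 to Dock9 (0.94) and Pip4k2c (0.92). Nt5e was closest to Pls3 and Cnih2 (0.93 each), and Lypd6b to Castor1 and Mthfsd (0.92 each). These values are over libraries of 4 groups and reflect the differences between the groups, so they have no p.

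Markers of several cell types moved in the same left ventricles. All 8 ventricular cardiomyocyte markers fell there, and their sum was 25052 to 31148 TPM in the cKO and 35081 to 37692 TPM in the controls. On the right 0 of the 8 were called by edgeR, 4 had an unadjusted p under 0.05, DESeq2 called 1, and 6 fell without control 2. Between the sides edgeR called 3 of the 8, Hey2 (-1.10, edgeR adjusted p = 5.04e-06), Mycn (-0.65) and Irx4 (-0.53). It called 4 without right ventricle control 2, while 7 had an unadjusted p under 0.05 and DESeq2 called 6. Of 12 atrial cardiomyocyte markers 8 rose on each side, from 3428.6 to 3653.4 TPM in the left controls to 5053.9 to 5889 TPM in the left cKO. Of these 12 edgeR called 1 between the sides, Kcnk3 (-0.87, edgeR adjusted p = 0.00398). There 3 had an unadjusted p under 0.05, and DESeq2 called 2. Of 10 epicardial markers 7 rose on the left and 1 on the right, and of 12 endothelial and endocardial markers 8 and 3. On the right 8 of these 12 had an unadjusted p under 0.05, and 5 were called without control 2. For the side difference edgeR called 0 in either list, with 4 epicardial and 2 endothelial markers at an unadjusted p under 0.05. DESeq2 called 0 and 1 there, and edgeR called 1 epicardial marker without right ventricle control 2. Epicardial sums were 251.76 to 275.44 TPM in the cKO left ventricles against 188.83 to 204.08 TPM. Endothelial sums were 878.54 to 980.55 TPM against 716.45 to 748.67 TPM. Of 12 mesenchyme markers 1 rose on the left and 3 without right ventricle control 2, and edgeR and DESeq2 called 0 on the right, where 1 had an unadjusted p under 0.05. Of 8 macrophage markers 2 rose and 1 fell on the left. Erythroid markers had 1 of 10 higher on the left and 5 on the right, which was 1 without right ventricle control 2. Their median log2 fold change was 0.71 on the left and 1.02 on the right, and 0.94 on the right without that library. Of the 10, 6 on the left and 9 on the right had an unadjusted p under 0.05. Erythroid sums were 37266 to 93010 TPM in the cKO left ventricles against 27569 to 52078 TPM, which overlapped. Of 5 tested markers of neurons and neural crest, edgeR called 0 on either side, with 2 and 1 at an unadjusted p under 0.05, and DESeq2 called 2 on the left and 0 on the right. In the whole hearts 6 of the 8 ventricular cardiomyocyte markers fell, with sums of 15653 to 16339 TPM in the cKO and 19325 to 20032 TPM in the controls. Of the 12 atrial markers 8 rose there, with sums of 5041.3 to 5139.4 TPM against 3457.9 to 3900.7 TPM. The other whole heart calls by edgeR were 2 endothelial markers that rose and 2 higher and 1 lower of the pericyte and smooth muscle markers. Mesenchyme sums were 2441.9 to 2672.9 TPM against 2066.1 to 2109.6 TPM, where edgeR called 0 of the 12 markers, 7 had an unadjusted p under 0.05 and DESeq2 called 6. The part of these cell type differences in the values of the 10 genes was not tested.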

How the data were processed

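Total RNA of whole hearts or isolated ventricles was made into libraries with a stranded mRNA kit, with RNA integrity numbers of 6.1 to 10, per the labels' protocols. The authors deposited, per transcript, estimated counts and TPM from Salmon 1.2.1, per the submitters' processing notes, which also name DESeq2 1.22.2 and GRCm38.p6. The deposited estimated counts are neither scaled nor log-transformed. The deposited TPM are scaled to effective length and library.

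Transcripts were matched without version to GENCODE M21, where 521 of 140658 were not found. The annotation release named with the deposited data is later than that, so single transcripts could differ. Sums over the transcripts of each of 54356 genes were used, rounded for the counts. Tests used edgeR 4.0.16 in R 4.3.3 (quasi-likelihood F test, TMM, filterByExpr, Benjamini-Hochberg adjustment over all genes tested, threshold 0.05). The 6 whole hearts were fitted alone and the 16 ventricles as 4 group means in 1 fit. Each SE comes from the fold change and the F statistic of its test (size over the square root of F). The intervals for whole heart values are the estimate plus and minus the normal quantile times the SE. A gene is called higher or lower when its adjusted p is under 0.05. The fits were tested on simulated data. No label says that libraries are separate animals, so the p-values measure the spread between libraries, which may be technical.

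Genes were named by a rule: the 10 genes, Prdm16, up to 4 tested genes of each of 8 lists with the smallest left ventricle p, and the 2 most correlated protein-coding genes of each (mean of at least 1 CPM, log2 CPM with a prior count of 2). Other genes were named after their values were seen. The members and lists were chosen with earlier results of these data known. Alternatives covered other size factors, other filters on low counts, length correction, DESeq2 1.42.0, a replicate block and leaving out each library. Results of a few list genes are not reported here, and they remain in the counts.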

Additional observations from a re-analysis of the deposited data

Results flagged for a closer look

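Dixon's ratio was computed for the 10 genes in the 4 ventricle groups, 40 groups of 4 libraries in all, of which chance flags about 1 in 20. In 5 groups 1 library lay apart. Lrp8 was at 4.001 CPM in left ventricle control 1, and the other 3 controls had 2.57 to 2.78 CPM. Right ventricle control 2 lay above the other 3 controls for Pdgfc, at 14.8 CPM against 8.08 to 9.16 CPM, and for Cttnbp2, at 13.6 CPM against 7.80 to 8.80 CPM. Lypd6b was at 5.64 CPM in right ventricle cKO 4, and the other 3 cKO libraries had 3.65 to 3.70 CPM. It was at 1.28 CPM in right ventricle control 1, and the other 3 controls had 2.01 to 2.16 CPM.

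The cKO effect of Strip2 differed between the ventricles by the edgeR test of the difference, with a left minus right difference of -0.49 on the log2 scale (adjusted p = 0.000799).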

How the results depend on the processing

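Counts of calls depended on the correction for transcript length, which gave 139 genes in the whole heart (773 without it), 2691 in the left ventricle (4216), 837 in the right ventricle (1696) and 64 for the side difference (236). With it 3 of the 10 genes were called in the whole heart, and 15, 1 and 4 list genes in the right ventricle, for the side difference and in the whole heart, against 27, 3 and 21. DESeq2 gave 1657 genes in the whole heart, 454 for the side difference, and 8 and 34 list genes for the side difference and in the whole heart. Leaving out 1 library gave 184 to 1292 genes in the whole heart, 125 to 358 for the side difference, 4 to 8 of the 10 genes in the whole heart, 1 to 4 list genes for the side difference and 6 to 28 in the whole heart. The causes were not tested.

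The labels do not say that a shared replicate number marks a shared heart, litter or day. Deviations of same-numbered libraries correlated at -0.12 to 0.13 between cKO and control, at -0.11 to 0.09 between left and right controls and at 0.05 to 0.24 between left and right cKO ventricles. In none of these comparisons was every pair above 0.1, so the numbers were not taken as pairs. The left and right cKO pairs were all positive, however, so these ventricles may share hearts. The SE of side differences and of left over right ratios treat all ventricles as separate. A block by number gives cKO and control libraries of the same number a shared term, so no fit modelled a shared heart. With the numbers as a block, 218 genes and 4 of the 10 were called in the whole heart, and 5 and 8 list genes for the side difference and in the whole heart.

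Among the 10 genes the sign changed in some alternatives for the near-zero values of Lypd6b (left ventricle and whole heart), Pdgfc and Nt5e (right ventricle) and Kcnj8 (whole heart). Low counts, such as 25 reads of Aqp4 in left ventricle cKO 1 and 23 reads of Lypd6b in right ventricle control 1, limit single libraries.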
